A study of Homo sapiens with 2 samples.

Results

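The C/EBP factors CEBPA, CEBPB, CEBPD and CEBPG and the SOX factors SOX4, SOX9, SOX12 and SOX13 are transcription factors of liver cells and their progenitors. They were taken by symbol from the deposited gene table, where all 8 were found among 25556 genes. They were chosen by their ratios of IP to input in these same libraries, which were known beforehand, so the values are a description and carry no test. The series held 2 RIP-seq libraries from Huh-7, an established human hepatocellular carcinoma line, labelled WT and untreated. The IP library came from RNA precipitated with an antibody from the cell lysate, and the input library from the lysate itself. For the IP, the series' design text gives anti-SRSF7, SRSF7 being a splicing factor of the SR family that binds mRNA, and the treatment label of the IP reads SPSF7, while the protocol of both samples gives anti-YTHDF2, against a reader of the m6A mark, and poly(A) selection before the IP. The files do not settle which protein was precipitated. The libraries are called the IP and the input here.

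C/EBP proteins are basic leucine zipper (bZIP) factors that bind DNA as dimers. In liver, CEBPA drives hepatocyte differentiation and metabolic genes and restrains growth, and CEBPB and CEBPD take part in the acute phase response. CEBPG lacks the transactivation domain of its relatives and pairs with other bZIP proteins such as ATF4. SOX proteins bind and bend DNA through a high mobility group (HMG) box. SOX9 marks bile duct and progenitor cells, SOX4 and SOX12 belong to the SoxC group of activators, and SOX13 belongs to the SoxD group, which has no transactivation domain of its own.

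Gene-assigned reads numbered 5897293 in the IP and 2782045 in the input. Levels are RPKM, reads scaled to the length of the merged exons and to the assigned reads of the library, as deposited by the authors. With 1 library per group no difference has a replicate check, and every interval is a 95% interval that covers counting error only. Among genes with 1 to 20 reads, 77.3% of IP counts and 77.3% of input counts were even, a sign that a pair may have entered as 2 reads, so each ratio is also given with the wider interval for read pairs, in which all reads were divided by 2. Hepatocyte markers were abundant: the 8 listed (ALB, AFP, APOA1, APOB, TTR, SERPINA1, TF and FGB) summed to 5737 RPKM in the IP and 6740 RPKM in the input, with none at 0 reads. The 6 cholangiocyte markers summed to 103 RPKM in the IP and 98.4 RPKM in the input, and the 5 immune markers to 87.9 RPKM in the IP and 157 RPKM in the input. The 3 erythroid markers summed to 574 RPKM in the IP and 893 RPKM in the input, the 2 endothelial markers with a row to 2.49 RPKM in the IP and 3.76 RPKM in the input, and the 2 fibroblast markers with a row to 1.23 RPKM in the IP and 1.11 RPKM in the input. The endothelial marker CDH5 was the one at 0 reads, in the input. Most of the erythroid sum was HBB, at 467 RPKM in the IP and 738 RPKM in the input. Most of the immune sum was LYZ, at 70.2 RPKM in the IP and 133 RPKM in the input. HBA1 stood at 97.7 RPKM in the IP and 142 RPKM in the input, and ALAS2 at 8.86 RPKM in the IP and 13.3 RPKM in the input. Both libraries are labelled as 1 cell line, and these sums alone do not show that other cell types were present. The source of the reads of blood genes was not tested. The IP came from precipitated RNA and the input from the lysate, so differences between their sums do not measure cell numbers.

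In the IP 6 of the 8 genes were at least 2-fold higher than in the input, SOX13 was higher by less than that, and CEBPG was lower. On the scale of log2((IP + 1)/(input + 1)) of RPKM values, all 8 passed the filter on the mean of both libraries, 1 RPKM, and their median log2 ratio was 1.20 against 0.14 over the 14057 genes that passed it. Across those genes, 11.3% were at least 2-fold higher (8.06% of the protein-coding ones) and 8.25% at least 2-fold lower. Among the 8 genes, 0 were at least 2-fold lower. The C/EBP genes had a median log2 ratio of 1.16, with 3 of 4 at least 2-fold higher, and the SOX genes a median of 1.38, also with 3 of 4. The count depends on the scaling between the libraries: with scaling to reads in protein-coding genes it was 3 (SOX9, SOX12 and CEBPB), beside 6.32% of all genes, and the median log2 ratio of all genes moved to -0.17. With scaling to the same RPKM sum it was 7, beside 61.8% of all genes, and that median moved to 1.24. The share of higher genes among all 2-fold calls was 57.9% as deposited, 29.5% after the protein-coding scaling, 95.04% after the RPKM sum scaling and 44.6% after centring on the median.

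**Figure D1:**
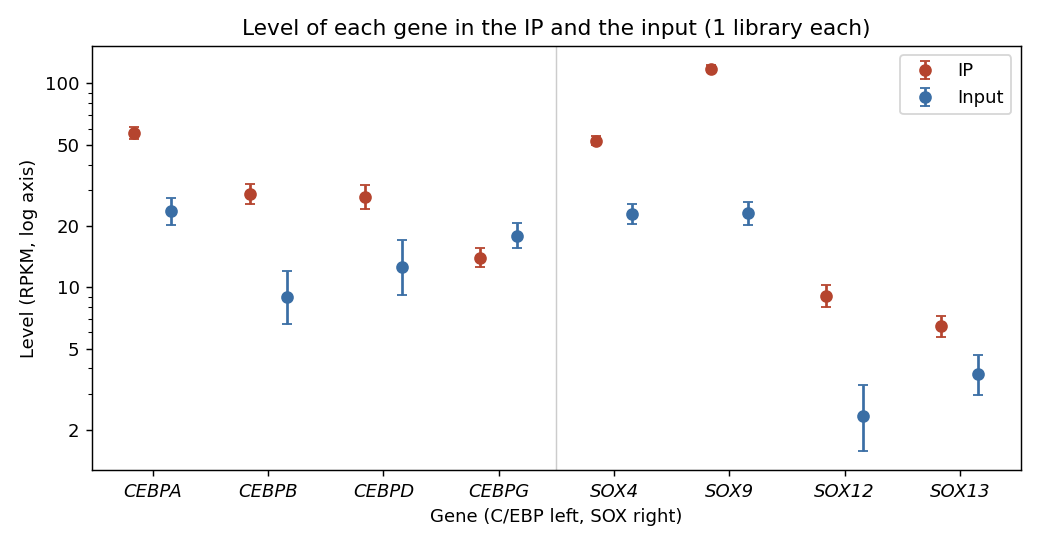
Level of each gene in RPKM (log axis) in the IP (left point of each pair) and the input (right point), with exact Poisson 95% intervals of the read counts (reads taken as independent), 1 library each. The IP point lies above the input point for all genes but CEBPG, and SOX9 stands highest in the IP at 118 RPKM.

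RefSeq promoter DNA is given for 4 of the genes, to set CEBPA and CEBPB, both higher in the IP, beside CEBPG, which was not, and SOX4, the one with the least GC. RefSeq promoters (GRCh38.p14) were matched for 6 of the 8 genes; SOX9 and CEBPD had no entry. Each line holds the 150 bases before the RefSeq transcription start, 5′ to 3′ on the strand of the gene, with TATAAA and CCAAT, searched on both strands, in capitals (CCAAT on the other strand reads ATTGG). The RefSeq start is the first base of the deposited gene for CEBPA, CEBPB and SOX4. That of CEBPG lies 24 bases inside the deposited gene, so the last 24 bases of its line, with the second ATTGG, are within the deposited gene.
CEBPA, chr19:33302535-33302684, minus strand: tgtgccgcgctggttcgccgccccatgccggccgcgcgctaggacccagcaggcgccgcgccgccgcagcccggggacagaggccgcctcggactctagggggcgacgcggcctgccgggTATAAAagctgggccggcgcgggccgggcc
CEBPB, chr20:50190680-50190829, plus strand: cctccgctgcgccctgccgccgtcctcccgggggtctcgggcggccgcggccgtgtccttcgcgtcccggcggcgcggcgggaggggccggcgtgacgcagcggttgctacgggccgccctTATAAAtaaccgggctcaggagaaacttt
CEBPG, chr19:33373559-33373708, plus strand: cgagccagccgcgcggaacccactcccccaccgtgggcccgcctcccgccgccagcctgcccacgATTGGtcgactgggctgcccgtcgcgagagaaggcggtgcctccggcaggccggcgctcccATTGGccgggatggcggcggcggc
SOX4, chr6:21593601-21593750, plus strand: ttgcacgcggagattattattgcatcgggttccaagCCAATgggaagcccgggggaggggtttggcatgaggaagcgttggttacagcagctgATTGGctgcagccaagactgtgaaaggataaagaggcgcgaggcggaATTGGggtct

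CEBPA and CEBPB each held 1 TATAAA, which began 30 and 29 bases before the start, and no CCAAT. CEBPG held 2 CCAAT and SOX4 held 3, and neither held TATAAA. Of 35116 RefSeq promoter windows of the same length, 6.71% held TATAAA and 23.5% held CCAAT. The GC content of these windows was 79.3% for CEBPA, 74.0% for CEBPB, 78.0% for CEBPG and 55.3% for SOX4. Over the whole promoter of 300 bases, which runs from 250 before to 50 after the start, CEBPA, CEBPB, CEBPG and SOX12 fell into the quintile of 1597 protein-coding genes with the most GC (at least 73.3%), where 10.4% were at least 2-fold higher. SOX4 was in the quintile with the least GC, where 5.91% were. CEBPG, with 77.3% GC, stood at a ratio of 0.780, and CEBPB, with 76.7%, at 3.19. Whether promoter GC bears on the ratio was not tested.

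CEBPA lies on chromosome 19 from 33299934 to 33302534 on the minus strand, in the coordinates of the deposited table, whose build no source used here names. It is a single exon of 2601 bases. CEBPA had 875 IP and 171 input reads, which is 57.0 RPKM in the IP and 23.6 RPKM in the input. Its ratio was 2.41 (2.05 to 2.86, and 1.91 to 3.08 for read pairs), and 93.1% of genes had a lower log2 ratio.

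CEBPB, also a single exon, of 1839 bases on the plus strand of chromosome 20 (50190830 to 50192668), had the highest ratio of its family. It had 311 IP and 46 input reads, 28.7 RPKM in the IP and 8.99 RPKM in the input. The ratio was 3.19 (2.33 to 4.45, or 2.05 to 5.18 for read pairs). CEBPD, a single exon of 1252 bases on the minus strand of chromosome 8 (47736913 to 47738164), had 205 IP and 44 input reads. Its level was 27.8 RPKM in the IP and 12.6 RPKM in the input, a ratio of 2.20 (1.58 to 3.12, or 1.38 to 3.66 for read pairs). The intervals of CEBPA, CEBPB and CEBPD overlapped one another.

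CEBPG, the dimer partner without a transactivation domain, went the other way. It has 3 merged exons of 4056 bases in all on the plus strand of chromosome 19 (33373685 to 33382686). It had 334 IP and 202 input reads, 14.0 RPKM in the IP and 17.9 RPKM in the input. The ratio of 0.780 had an interval of 0.653 to 0.934, which widened to 0.606 to 1.01 for read pairs and then included 1. Its log2 ratio was -0.34 as deposited and -0.71 after the protein-coding scaling, but 0.87 once both libraries had the same RPKM sum, so that its direction holds relative to other genes and not on every scale. In both intervals CEBPG lay below each of the other 7 genes without overlap.

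SOX9, which encodes the factor of duct and progenitor cells, had the highest level in the IP and the highest ratio of the 8. It has 3 exons of 3931 bases in all on the plus strand of chromosome 17 (72121020 to 72126416). SOX9 had 2743 IP and 252 input reads, 118 RPKM in the IP and 23.0 RPKM in the input. The ratio was 5.13 (4.51 to 5.87, or 4.28 to 6.21 for read pairs). Of the 14057 genes, 162 had a higher log2 ratio than its 2.31, and among protein-coding genes 99.96% were lower.

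The SoxC genes SOX4 and SOX12 are single exons as well. SOX4, 4869 bases on the plus strand of chromosome 6 (21593751 to 21598619), had 1505 IP and 310 input reads, 52.4 RPKM in the IP and 22.9 RPKM in the input, a ratio of 2.29 (2.03 to 2.60, or 1.92 to 2.74 for read pairs). SOX12, 4630 bases on the plus strand of chromosome 20 (325595 to 330224), had 247 IP and 30 input reads, the fewest input reads of the 8. It stood at 9.05 RPKM in the IP and 2.33 RPKM in the input, and the ratio of 3.88 had an interval of 2.65 to 5.88, or 2.27 to 7.15 for read pairs. The intervals of SOX4 and SOX12 did not overlap with reads taken as independent and did for read pairs.

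SOX13 has 16 merged exons of 7420 bases in all on the plus strand of chromosome 1 (204073115 to 204127743). It had 282 IP and 77 input reads, 6.44 RPKM in the IP and 3.73 RPKM in the input. Its ratio of 1.73 (1.34 to 2.25, or 1.20 to 2.54 for read pairs) was above 1 in both intervals, and 77.1% of all genes had a lower log2 ratio.

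In the order of ratios, SOX9 was followed by SOX12, CEBPB, CEBPA, SOX4, CEBPD, SOX13 and CEBPG. Each neighbouring pair had overlapping intervals except SOX13 and CEBPG. Intervals of levels, unlike those of ratios, were made only with reads taken as independent, and would be wider for read pairs. The order of levels in the IP was SOX9, CEBPA, SOX4, CEBPB, CEBPD, CEBPG, SOX12 and SOX13. On that basis the counting intervals overlapped between CEBPA and SOX4 and between CEBPB and CEBPD. In the input CEBPA, SOX9 and SOX4 were indistinguishable, at 23.6 RPKM (20.2 to 27.5), 23.0 RPKM (20.3 to 26.1) and 22.9 RPKM (20.4 to 25.6), and CEBPG, CEBPD, CEBPB, SOX13 and SOX12 followed. The intervals of the input levels overlapped between all neighbours but CEBPB and SOX13. CEBPG stood above CEBPD and CEBPB in the input and below both in the IP.

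**Figure D2:**
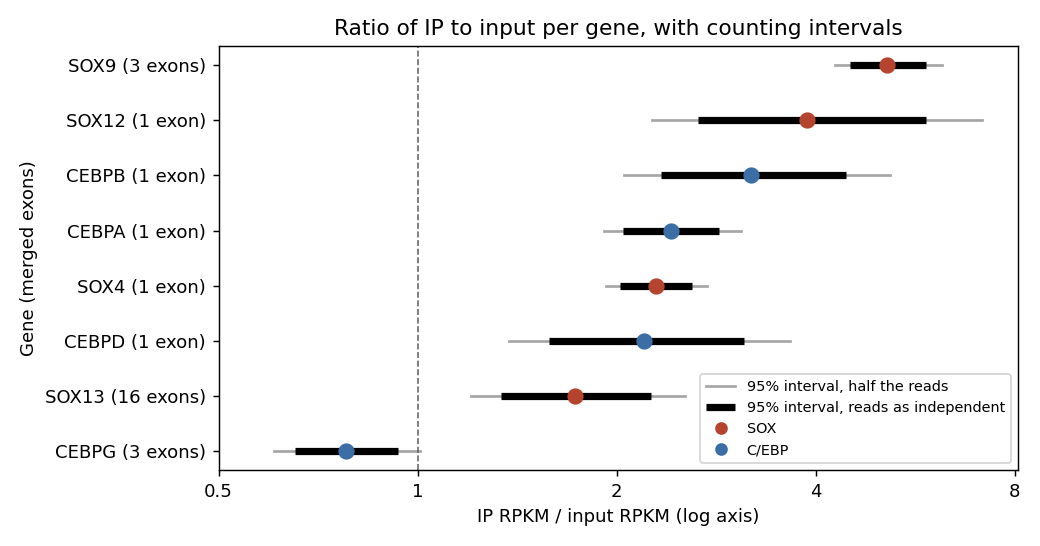
Ratio of IP to input RPKM for each gene (log axis), ordered from the highest, with 95% counting intervals from all reads (thick) and for read pairs (thin); the dashed line marks a ratio of 1. SOX9 is at 5.13 and CEBPG, at 0.780, is the one gene whose point lies below 1.

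Levels in 2 libraries also gave the protein-coding genes most like CEBPA and SOX9, by distance in log2(RPKM + 1) over the IP and the input. Nearest to CEBPA were ARGLU1, at 54.7 RPKM in the IP and 24.3 RPKM in the input (distance 0.071), GNAS at 60.7 RPKM in the IP and 24.3 RPKM in the input (0.097), and TNIP1 at 54.3 RPKM in the IP and 24.8 RPKM in the input (0.098). Nearest to SOX9 were POLR2A, of RNA polymerase II, at 105.5 RPKM in the IP and 20.7 RPKM in the input (0.22), SRRM1 at 127 RPKM in the IP and 27.9 RPKM in the input (0.28), and the Mediator subunit MED19 at 123 RPKM in the IP and 28.5 RPKM in the input (0.30). Each of these 6 genes carried from 3 to 7 of the deposited peaks, while 30.1% of protein-coding genes carried any. The 6 were picked by levels in the same 2 libraries that gave the peaks, so the peaks are no separate likeness.

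The deposited peak list placed 17 of its 7643 peaks in 7 of the 8 genes, and CEBPG had none. Of the protein-coding genes that passed the filter, 30.1% carried a peak, and 35.03% of the 6324 such genes with 30 to 310 input reads, the range of the 8 genes, did. Peaks and gene ratios come from the same 2 libraries, so the peaks are no independent support. Folds and false discovery rates below are those of the authors' deposited table, and positions count bases from the 5′ end of the merged exons, with a possible error of 1 base because 56 deposited peaks had a start coordinate 1 below the lowest exon coordinate of their gene.

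SOX9 carried the longest of the 17 peaks and the one with the highest fold. In the authors' deposited table, a peak spanning both introns (72121444 to 72124785) covered exonic bases 425 to 2300, 1876 bases in all, at a fold of 4.35 and a false discovery rate of 6.30e-52. Of all peaks, 45 had a smaller rate and 114 covered more exonic bases. A second SOX9 peak, at bases 225 to 325, had a fold of 3.77 and a rate of 0.0453. The 2 peaks covered 50.3% of the SOX9 exons and left the last 1631 bases free of peaks.

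CEBPA had 3 peaks, all in the first 50% of its exon. They lay at bases 277 to 702, 727 to 952 and 1077 to 1152, with folds in the authors' deposited table of 2.42, 2.37 and 2.29 and rates of 0.000111, 0.000177 and 0.00804. CEBPB had a peak at the very start of its exon, bases 1 to 375, with a fold of 3.25 but a rate of 0.0642 in the authors' deposited table, and one at bases 675 to 1225 with a fold of 2.54 and a rate of 0.000674. Together these covered 50.4% of the CEBPB exon, against 28.0% for CEBPA. The short CEBPD gene had peaks at bases 678 to 803 and 978 to 1078, with folds of 2.57 and 3.51 and rates of 0.0159 and 0.0820 in the authors' deposited table.

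SOX4 had the most peaks, 5, all of modest fold. They began at bases 325, 1000, 1525, 2075 and 3000, with folds from 2.04 to 2.73 in the authors' deposited table, and the smallest rate, 1.60e-05, belonged to the last of them. SOX12 had peaks at bases 550 to 1150 and 2300 to 2475, with folds of 3.28 and 3.71 and rates of 0.00200 and 0.0766 in the authors' deposited table. SOX13 had 1 peak, at bases 150 to 375, with a fold of 2.54 and a rate of 0.0309 in the authors' deposited table, which covered 3.05% of its exons.

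Of the 17 peaks, 12 were centred in the first 50% of the exonic length, 70.6% against 60.8% of all peaks, and 1, in CEBPD, in the last 25%, where 14.3% of all peaks lay. Their median fold was 2.54 against 2.71 for all peaks, so that peaks in these genes were not unusual in fold. Among them 4 had a false discovery rate above 0.05, in CEBPB, CEBPD, SOX4 and SOX12, 23.5% against 39.7% of all peaks.

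**Figure D3:**
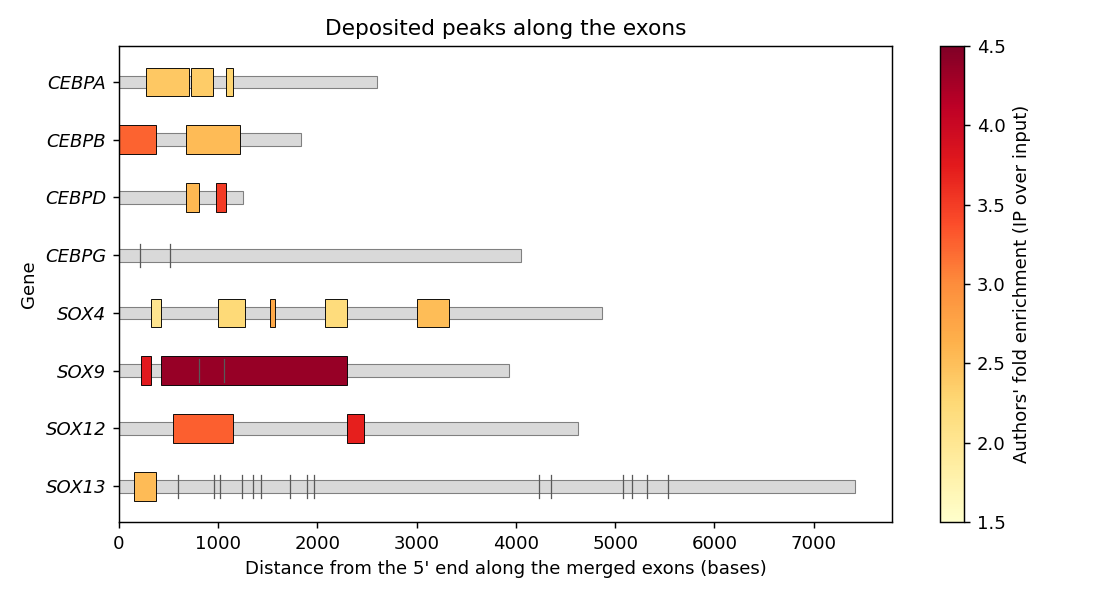
Deposited peaks (coloured boxes, colour by the authors' fold enrichment) along the merged exons of each gene (grey bars, with ticks at exon boundaries), by distance in bases from the 5′ end. SOX9 has one long peak from base 425 to 2300, CEBPA has its 3 peaks in the first 50% of the exon and CEBPG has 0 peaks.

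A feature that did not enter the choice of the genes is their exon number. CEBPA, CEBPB, CEBPD, SOX4 and SOX12, 5 of the 8, were single exons in the deposited table, against 2.42% of the protein-coding genes that passed the filter. Those 5 genes had ratios from 2.20 to 3.88, while the 3 genes with introns spread more widely, from 0.780 for CEBPG to 5.13 for SOX9. All 8 were chosen by their ratios, so these ranges say nothing about exon number. Across the table, 33 of 238 single-exon protein-coding genes (13.9%) and 761 of 9615 multi-exon ones (7.91%) were 2-fold or more above the input in the IP, with median log2 ratios of 0.32 and 0.16. Within the length range of the 5 genes, 1252 to 4869 exonic bases, the shares were 17.1% of 152 single-exon and 6.34% of 4256 multi-exon genes, with medians of 0.42 and 0.06. Genes at least 2-fold lower made up 1.97% and 6.20% of the same groups. The single-exon groups include the 5 genes themselves, which also set the length range. Without them the shares of higher genes were 12.02% of 233 single-exon genes and 14.3% of the 147 in that range, with medians of 0.32 and 0.40. Genes are not replicates, so no test was made. Of the same 238 genes, 15 were at least 2-fold higher after the protein-coding scaling, beside 6.32% of all genes. After centring on the median the count was 21, beside 8.37% of all genes, and with equal RPKM sums 176, beside 61.8%. As deposited, 11.3% of all genes were higher, so the excess of single-exon genes over all genes depends on the scaling. Shares of multi-exon genes under these scalings are not given here, so the contrast with multi-exon genes was not followed across them.

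**Figure D4:**
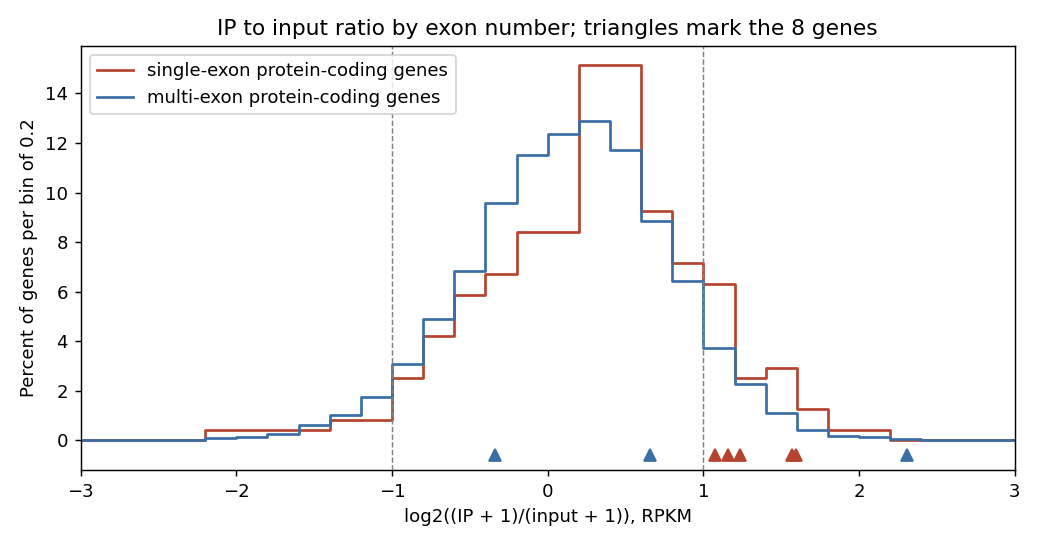
Distribution of log2((IP + 1)/(input + 1)) of RPKM over 238 single-exon and 9615 multi-exon protein-coding genes, in percent of genes per bin of 0.2, with triangles for the 8 genes in the colour of their exon class and dashed lines at 2-fold. The single-exon curve has more of its genes beyond 2-fold higher (13.9% against 7.91%, and 12.02% without the 5 single-exon genes of the 8). The 8 genes were chosen by their ratios, so the place of the triangles says nothing about exon number.

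The median ratio was higher among longer genes than among shorter ones, and the single-exon C/EBP genes were short. In the quintile of protein-coding genes with the shortest exonic length, 213 to 2811 bases, which holds CEBPA, CEBPB and CEBPD, the median log2 ratio was -0.01 and 6.39% of genes were at least 2-fold higher. In the longest quintile, 8236 bases and more, which holds none of the 8, the median was 0.35 and the share 12.0%. The single-exon SOX4 and SOX12 were in the middle quintile, 4252 to 5870 bases, with a median of 0.14 and a share of 7.26%. Whether exonic length bears on the ratios of the 8 genes was not tested.

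Genes annotated on the opposite strand overlap the exons of 3 of the 8 genes, and those of CEBPA most. The clone-named genes AC008738.5 and AC008738.3 are annotated antisense within the CEBPA exon and together overlap 43.9% of it. AC008738.5 had 363 IP and 62 input reads, a ratio of 2.76 (2.11 to 3.68), and AC008738.3 had 170 IP and 37 input reads, a ratio of 2.17 (1.51 to 3.18). Both intervals overlapped that of CEBPA. CEBPB-AS1, which overlaps 231 bases of CEBPB, had 48 IP and 9 input reads, and AL512380.2, which overlaps 168 bases of SOX4, had 10 IP and 0 input reads. The library kit is stranded per the labels, but no source used here names the strand setting of the counting, and how far reads of CEBPA and of its antisense partners were kept apart was not tested. Without genes that overlap exons on the opposite strand, a setting chosen after the data were seen, 3 of the 5 genes left (CEBPD, SOX9 and SOX12) were at least 2-fold higher, beside 11.6% of all genes. None of the 8 genes shares exon bases with another gene on its own strand.

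Other bZIP genes and partners of C/EBP proteins were at least 2-fold higher at about the share of all genes. The 8 genes were chosen by their ratios, so nothing is drawn from setting this list beside them. Of 16 listed genes 9 passed the filter, 1 was at least 2-fold higher and 0 at least 2-fold lower, with a median log2 ratio of 0.57. Over all genes the shares were 11.3% and 8.25%. By log2(RPKM + 1), on which these calls and the order within each list were made, the highest were the stress factor ATF3, at a ratio of 2.94 (1.77 to 5.13, from 112 IP and 18 input reads), and ATF5 at 2.01 (1.60 to 2.56), which is just short of 2-fold on that scale. TRIB1, with a ratio of 2.26 (1.26 to 4.35) from 67 IP and 14 input reads, ranks lower on it, at 0.76 against 0.95 for ATF5. The lowest on that scale were CEBPZ, which shares the name but is not a bZIP protein, at 1.03 (0.861 to 1.25), and BATF at 1.23 (0.572 to 2.85). Part of the ATF5 reads may belong to a gene that shares exon bases with it.

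Few other SOX genes had reads in these cells. Of 15 listed genes 6 had a row and 2 passed the filter, the SoxD relatives of SOX13. SOX5 was at 1.92 times its input level (1.49 to 2.48), with 321 IP and 79 input reads and 4 peaks. SOX6 was at 1.25 times (1.02 to 1.53), with 357 IP and 135 input reads and 0 peaks, and shares exon bases with another gene. The remaining 4, SOX2, SOX7, SOX10 and SOX15, had at most 4 reads in a library.

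Target genes of C/EBP factors in hepatocytes had a median log2 ratio of 0.11, against 0.14 over all genes. Of 14 measured genes, 0 were at least 2-fold higher and 1 at least 2-fold lower, against 11.3% and 8.25% of all genes. Some lay above the input and some below it, with intervals that left out a ratio of 1. The complement gene C3 was at 1.66 (1.59 to 1.73) and SERPINA1, the gene of alpha-1 antitrypsin, at 1.45 (1.41 to 1.49). By log2(RPKM + 1) the lowest were the acute phase gene SAA1, with 2 IP and 8 input reads, and the thyroxine carrier TTR at 0.607 (0.538 to 0.684). With equal RPKM sums 8 of the 14 were at least 2-fold higher, as were 61.8% of all genes.

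Genes of the duct and progenitor programme that SOX9 belongs to had a median log2 ratio of 0.43. Of 16 measured genes, 0 were at least 2-fold higher and 1 was at least 2-fold lower, against 11.3% and 8.25% of all genes. A peak was carried by 8 of the 16, against 30.1% of protein-coding genes. Highest by log2(RPKM + 1), the liver factor ONECUT1 was at 1.77 (1.53 to 2.06) and the Notch ligand JAG1 at 1.73 (1.58 to 1.91). Lowest on that scale, EPCAM was at 0.758 (0.662 to 0.869), and CD24, with 539 IP and 675 input reads, at 0.377 (0.336 to 0.422). With equal RPKM sums, 13 of the 16 were at least 2-fold higher, as were 61.8% of all genes.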

How the data were processed

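A gene table and a peak table were used, from 1 IP and 1 input library. The submitters' processing notes list Trimmomatic and STAR 2.5.3a. No source used here names the counter, the annotation, the peak caller or the genome build. Gene values are RPKM deposited by the authors under a header with no unit: value times length has the same sum in both columns, and every value came to a whole number of reads (tolerance 0.01, 100% of genes), which gave the reads and intervals. The peak table holds, per the file headers, the fold (a ratio), p-value, FDR and score of each peak.

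The main value was log2((IP + 1)/(input + 1)) where the mean of both libraries reached 1 RPKM. Ratios of RPKM carry Clopper-Pearson based 95% intervals, and levels exact Poisson ones. Peaks were given to the same-strand gene whose exons they overlapped most, by 1 base or more. RNA classes came from RefSeq (GRCh38.p14), which matched 19793 symbols or older symbols and left 5763 unmatched. No test was run, since each group has 1 library. The 8 genes, the lists and the settings were chosen with earlier results of these data known. The genes named were the 8, the 2 highest and 2 lowest of each list by log2(RPKM + 1), and the 3 nearest to CEBPA and SOX9; TRIB1 and the antisense genes at the 8 were added once their values were known. The planned motif search in peak sequences was not run, since no genome was used here. The interval code was tested on simulated counts. Tools were scipy 1.17.1, numpy 2.4.6, pandas 2.3.3 and matplotlib 3.10.9 under Python 3.11.15.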

Additional observations from a re-analysis of the deposited data

How the results depend on the processing

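The counts and medians depend mainly on the scaling between the libraries, which 1 IP and 1 input cannot settle. With protein-coding reads as the scale, the median log2 ratio was 0.83 for the 8 genes, 0.79 for the C/EBP and 1.06 for the SOX genes. On that scale 3 of the 8, 15 of 238 single-exon genes and 0 of 9 bZIP partners were at least 2-fold higher, beside 6.32% of all genes. After scaling to the same RPKM sum, the medians of these groups were 2.45, 2.40 and 2.62, and the log2 ratio of CEBPG turned to 0.87. At least 2-fold higher were then 176 of 238 single-exon genes, 9 of 9 bZIP partners and 2 of 2 other SOX genes. So were 8 of 14 C/EBP targets and 13 of 16 duct genes, beside 61.8% of all genes. After centring on the median, the counts were 21 of 238 single-exon genes, 0 of 9 bZIP partners and 5 of the 8 genes, beside 8.37% of all genes. With a pseudocount of 0.1, 3 of 9 bZIP partners were at least 2-fold higher, beside 16.9% of all genes. Raising the filter to 5 RPKM left fewer genes in each group. At least 2-fold higher were then 19 of 139 single-exon genes and 0 of 5 bZIP partners, beside 12.7% of all genes. At a 1.5-fold threshold, which 25.5% of all genes passed upward, the counts were 74 of 238 single-exon genes, 4 of 9 bZIP partners, 1 of 2 other SOX genes, 1 of 14 C/EBP targets and 7 of 16 duct genes. Leaving out genes that overlap exons on the opposite strand, chosen after seeing the data, left 5 genes with 3 at least 2-fold higher, beside 11.6% of all genes. The C/EBP median was then 0.37 over 2 genes. Of the 17 peaks, 9 in 5 genes had a false discovery rate of at most 0.01 and 6 in 4 genes a fold of at least 3. The count of 0 genes at least 2-fold lower held under all settings run on the 8. Beyond the scalings, where the alternative itself shifts every ratio, the cause of these changes was not tested. Depth limits SOX12, CEBPD and CEBPB most, with 30, 44 and 46 input reads. No paired analysis was possible because each group has 1 library.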

Other observations

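A list of non-coding transcripts of C/EBP and SOX loci had few reads. CEBPA-DT, the divergent transcript of CEBPA, had 90 IP and 25 input reads, 6.94 RPKM in the IP and 4.09 RPKM in the input, a ratio of 1.70 (1.08 to 2.76), and shares exon bases with another gene. CEBPB-AS1 was at 3.07 RPKM in the IP and 1.22 RPKM in the input, a ratio of 2.52 (1.22 to 5.83). SOX9-AS1 had 4 IP and 0 input reads, CASC15, near SOX4, had 17 IP and 14 input reads, LINC00511 had 8 IP and 4 input reads, and SOX2-OT, at the SOX2 locus and not beside any of the 8 genes, had 4 IP and 2 input reads. Of these 6 genes, 2 passed the filter on the mean. Of the 2, 0 were at least 2-fold higher on the log2(RPKM + 1) scale, against 11.3% of all genes, and 0 carried a peak, against 21.4%.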
